A study of Mus musculus with 8 samples.

Results

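Pre-mRNA splicing genes were followed in NK cells of 2 organs and 2 genotypes. The genes were 46 of the 48321 gene symbols in the count files. They were taken by symbol: the serine/arginine-rich splicing factors (Srsf genes), the heterogeneous nuclear ribonucleoproteins (hnRNPs, Hnrnp genes), the CDC2-like kinases Clk1 to Clk4, the Luc7l genes, and Rsrp1, Son, Srrm1, Srrm2, Ddx5, Pnisr, Tra2a and Tra2b. A gene needed at least 10 reads over the 8 libraries. Of 47 matching symbols, 1 pseudogene was left out by its name and every other one passed. By role they fell into 11 SR proteins, 10 SR-related proteins, 4 CLK kinases, 20 hnRNPs and the RNA helicase Ddx5. All but Srsf12 passed the filter on low counts, so 45 were tested among 12595 genes.

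The cells were freshly sorted as CD45+ TCRb- NK1.1+ from lung and spleen of C57/Bl6 mice. The mice were wild type (Wt) or homozygous for a germline deletion of Ccl5-PE (Ccl5 ΔPE/ΔPE, called KO), the proximal enhancer that drives steady-state expression of the chemokine gene Ccl5, and they carried no other engineered allele or treatment that the labels name. Each of the 4 groups, Wt lung, KO lung, Wt spleen and KO spleen, was sequenced in 2 libraries, for which the labels give no age, sex or number of pooled mice, so that n counts libraries and the p-values measure the spread between libraries. The question of the experiment was which RNAs change in NK cells of either organ when Ccl5-PE is missing.

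SR proteins bind exons through RNA recognition motifs and recruit the spliceosome through a domain rich in arginine and serine. CLK kinases phosphorylate that domain inside the nucleus, which releases SR proteins from nuclear speckles, where Son and Srrm2 form the scaffold. Many hnRNPs coat nascent RNA and oppose exon inclusion, and in lymphocytes Hnrnpl and Hnrnpll are known for skipping the variable exons of the CD45 gene. Many transcripts of these families also carry exons or retained introns that send the RNA to decay or hold it in the nucleus, and counts per gene do not separate such forms from the coding ones.

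The stretches upstream of the transcription start are shown for Rsrp1, Luc7l3 and Hnrnpl, 3 genes called in opposite directions in the 2 organs under every scaling and offset tried. They come from the RefSeq promoter table (GRCm38.p6, the same build as the mm10 genome of the reads) and cover the 200 bases before the start, written 5′ to 3′ on the strand of the gene, and this start can lie inside the longer gene span of the GENCODE annotation. Capitals mark the letters GGGCGG, bound by Sp/KLF factors, and CCAAT, bound by NF-Y, on either strand. The Rsrp1 stretch is chr4:134923425-134923624 (plus strand), the Luc7l3 stretch chr11:94321964-94322163 (minus strand) and the Hnrnpl stretch chr7:28810690-28810889 (plus strand).
Rsrp1: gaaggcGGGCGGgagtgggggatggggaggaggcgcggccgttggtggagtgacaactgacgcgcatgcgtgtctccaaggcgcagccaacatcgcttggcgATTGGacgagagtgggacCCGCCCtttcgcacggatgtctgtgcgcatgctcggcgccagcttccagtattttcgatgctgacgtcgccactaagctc
Luc7l3: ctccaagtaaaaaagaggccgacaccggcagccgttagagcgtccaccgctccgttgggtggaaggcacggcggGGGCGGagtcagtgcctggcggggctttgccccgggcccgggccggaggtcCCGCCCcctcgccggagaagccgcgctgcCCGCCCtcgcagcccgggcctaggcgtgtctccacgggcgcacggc
Hnrnpl: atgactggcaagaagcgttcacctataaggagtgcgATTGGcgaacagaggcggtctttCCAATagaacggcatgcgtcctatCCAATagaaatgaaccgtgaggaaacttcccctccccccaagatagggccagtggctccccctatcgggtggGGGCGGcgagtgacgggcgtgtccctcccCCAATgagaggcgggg

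The Rsrp1 stretch held 2 Sp/KLF matches and 1 NF-Y match, the Luc7l3 stretch 3 Sp/KLF matches, and the Hnrnpl stretch 1 Sp/KLF and 4 NF-Y matches. A promoter window of 250 bases before to 50 bases after the start was on hand for 41 of the 46 genes. Sp/KLF letters were in the windows of 33 of these 41 genes (80.5%) and of 38.2% of all 27025 genes with a window. NF-Y letters were in 24 of them (58.5%, against 41.1% of all genes) and the motif of NRF1, read on both strands as the rest, was in 8 (19.5% against 5.19%). TATAAA was in 5 (12.2% against 15.7%), and the RUNX letters ACCACA also in 5 (12.2% against 18.9%). The windows were rich in GC, with a median of 65.3% against 52.7% over all genes, and in CpG, with a median of 30 sites against 7. Matches of different motifs may overlap. They describe the windows and were not tested for binding. The 27025 genes were not limited to the 12595 tested in these cells, so the contrasts may not be particular to splicing genes.

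Between 3132963 and 26482366 reads were counted on genes per library, with KO spleen replicate 1 the shallowest and KO spleen replicate 2 the deepest. Levels are given as CPM, reads scaled to a common library size with TMM, and 3 reads corresponded to between 0.115 and 0.979 CPM, a floor that covers counting error only. Ccl5 itself, the check of the genotype, lay between 15664 and 19518 CPM in the 4 Wt libraries and between 2432 and 3195 CPM in the 4 KO libraries. The 2 libraries within each group lay close together, with a variance of 1.23 to 1.54 times that of counting alone and a common biological coefficient of variation (BCV) of 2.50%. The NK genes Ncr1, Klrb1c and Eomes were present in all libraries, and of 6 myeloid markers Adgre1, S100a8 and S100a9 were at 0 throughout. Summed over these 6, the level was 32.4 to 41.5 CPM in lung and 20.0 to 27.7 in spleen, with Lyz2 at 12.2 and 15.8 CPM in Wt lung, 23.5 and 25.2 in KO lung and at most 4.10 in spleen. Summed over 4 platelet and erythroid markers, the level was 42.8 to 52.1 CPM in lung and 1.25 to 2.87 in spleen. In lung this sum held opposite changes with the genotype. Pf4 went from 8.58 and 8.29 CPM in Wt to 1.23 and 0.544 in KO, and Ppbp from 21.1 and 20.2 to 4.71 and 6.12. Hbb-bs went from 13.2 and 16.6 CPM in Wt to 28.7 and 31.7 in KO, and Hba-a1 from 5.59 and 6.99 to 8.19 and 11.7. Summed over 3 lung epithelial markers, the level was 239 CPM in both Wt lung libraries, 312 and 346 in KO lung and under 1 in spleen. Of these, Sftpc went from 152 and 156 CPM in Wt lung to 251 and 282 in KO lung. Scgb1a1 went the other way, from 87.3 and 83.4 to 60.4 and 63.9. Summed over 4 B cell markers, the level was 5.18 to 8.16 CPM in lung and 38.2 to 44.3 in spleen, and over 4 T cell markers 38.9 to 46.9 in lung and 131 to 156 in spleen. The part of these other cells in the differences between organs and between genotypes was not tested. In such bulk samples fewer cells of a type cannot be told apart from less RNA per cell.

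Per length of exon, the genes spanned a wide range of levels. Hnrnpk, a binder of C-rich RNA, had the highest mean over the 8 libraries, 214 RPKM (CPM per kilobase of exon), and Rsrp1, a small protein rich in arginine and serine whose function is little known, the next, 183 RPKM. Ddx5, an RNA helicase, stood at 155 RPKM and Srsf7, an SR protein, at 124. At the low end were Hnrnpa3 at 2.53, Hnrnpll at 2.72 and Clk2 at 2.88 RPKM. The SR protein Srsf12 was close to absence, with 0 and 0 reads in Wt lung, 2 and 4 in KO lung, 3 and 10 in Wt spleen, and 3 and 24 in KO spleen, which is at or under 1.17 CPM everywhere. The first 3 of this order changed place with the group: Rsrp1 was at 101 RPKM in Wt lung, under Ddx5 at 162, and at 236 RPKM in Wt spleen, over Hnrnpk at 207 and Ddx5 at 136.

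The sum over all 46 genes moved little between the groups. It was 11109 and 10965 CPM in Wt lung, 11469 and 11163 in KO lung, 10049 and 10317 in Wt spleen, and 10404 and 10589 in KO spleen. With library totals in place of TMM, the group means were 10611 in Wt lung and 11583 in KO lung, and 10520 in Wt spleen and 10324 in KO spleen, so that the lung gap widened and the spleen gap, with means of 10183 in Wt and 10496 in KO under TMM, turned round. The differences described next lay between members.

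**Figure D1:**
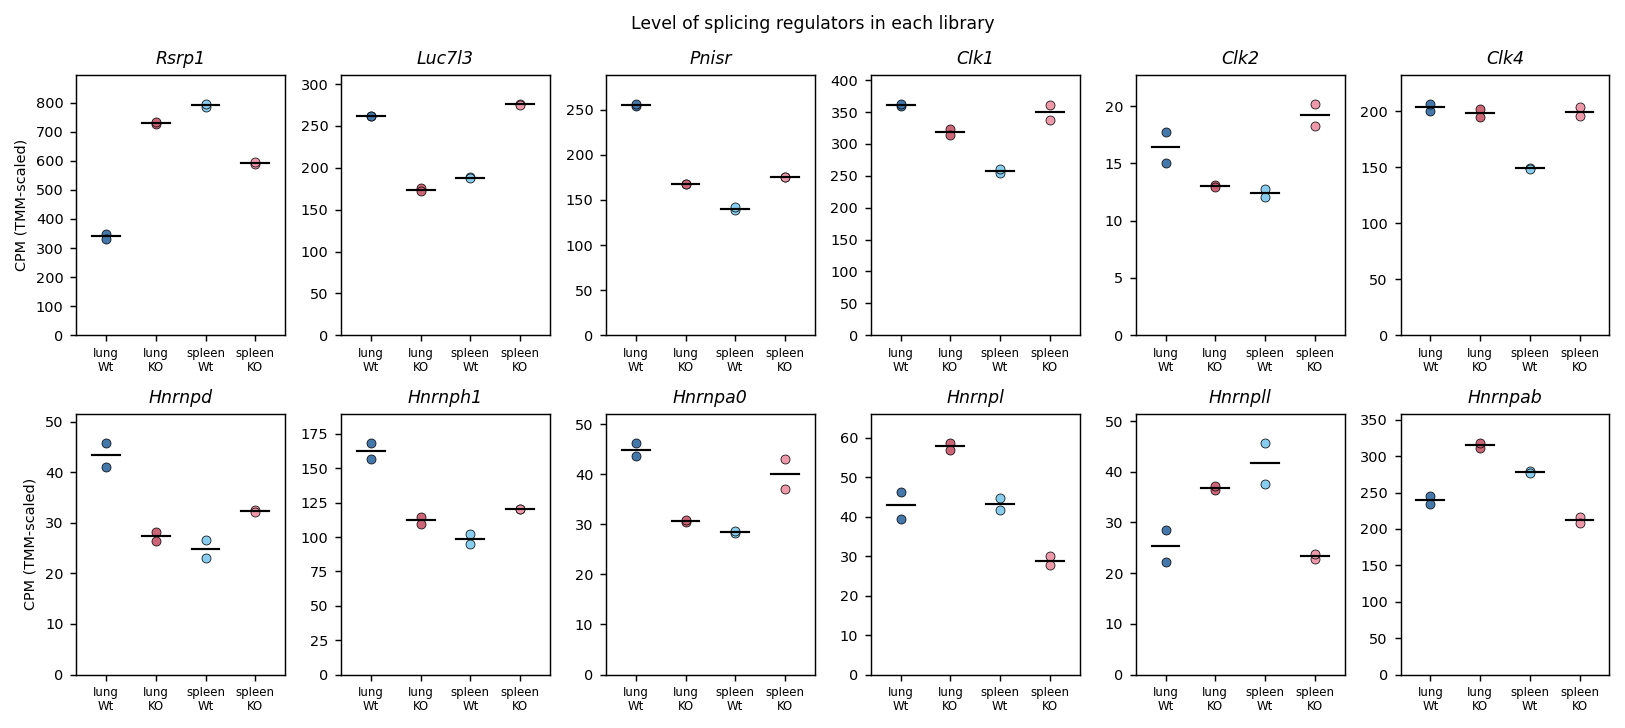
Level in CPM (vertical axis, from 0) of 12 splicing regulators in each of the 8 libraries, with one point per library and a line at the group mean of 2. Rsrp1, Hnrnpl, Hnrnpll and Hnrnpab rose in KO lung and fell in KO spleen, and Luc7l3, Pnisr, Hnrnpd and Hnrnpa0 did the opposite under every scaling and offset tried, whereas Clk1, Clk2 and Hnrnph1 were called so with TMM but not under every one of them.

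The comparison of KO with Wt in each organ gave opposite directions for many of the genes. In lung, 29 of 45 passed the test, 11 higher and 18 lower in KO, beside 55.6% of all genes tested (29.2% higher, 26.4% lower). In spleen, 30 passed, 23 higher and 7 lower, beside 57.1% of all genes (28.2% higher, 28.9% lower). The shares called, 64.4% and 66.7%, were thus near those of all genes. The effects were small, since 7 genes in lung and 4 in spleen had an absolute log2 fold change of 0.5 or more besides passing the test, beside 31.5% and 28.4% of all genes. Calls were made with edgeR's quasi-likelihood test at an adjusted p of 0.05 (Benjamini-Hochberg over all genes tested). The split by direction depended on the scaling: with library totals it was 16 higher and 12 lower in lung and 15 higher and 13 lower in spleen, a scaling with which the median log2 fold change of all genes in lung is 0.11 in place of 0.02, and with a GC offset, which removes each library's trend with GC content, it was 11 and 16 in lung and 18 and 11 in spleen. An offset for exon length gave 7 higher and 25 lower in lung. All genes moved as well. Of all genes called in lung, 63.3% were higher with library totals, 43.6% with the GC offset and 41.8% with the length offset, from 52.5%. In spleen the share was 41.2% with library totals and 52.8% with the GC offset, from 49.3%. The calls also rested on the narrow spread between libraries: with an assumed BCV of 0.1, 4 genes were higher and 7 lower in lung and 6 higher and 4 lower in spleen, and with 0.2, Rsrp1 in lung was the 1 call left in either organ. Of all genes, 34.9% in lung and 32.6% in spleen were called with 0.1, and 12.4% and 9.08% with 0.2.

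Both KO libraries lay above both Wt libraries for 14 of the 45 genes in lung and below them for 22, beside 39.3% and 36.7% of all genes. In spleen they lay above for 24 and below for 11, beside 36.4% and 37.4%.

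In total, 21 of the 45 genes passed the test in both organs with opposite signs, beside 27% of all genes. No library enters both contrasts, but they share 1 estimate of the spread. The library titles do not say whether lung and spleen libraries came from the same mice. Of the 21, 15 were lower in KO lung and higher in KO spleen, beside 12.8% of all genes, and 6 were higher in KO lung and lower in KO spleen, beside 14.2%. By edgeR's test 0 passed in the same direction in both organs, beside 7.66% of all genes, a count that was also 0 at an unadjusted p under 0.05 and with DESeq2, but 2 with library totals and 1 with the GC offset. The other 24 comprised 17 that passed in 1 organ and 7 that passed in neither. The 6 of the second kind were Rsrp1, Hnrnpab, Hnrnpl, Hnrnpll, Hnrnpm and Hnrnpu. All 6 kept both calls under RLE and upper-quartile scaling, library totals, the GC offset and the length offset. Of the 15 of the first kind, 4 did so, namely Luc7l3, Pnisr, Hnrnpd and Hnrnpa0. With library totals 6 of the 15 kept both calls, with the GC offset 10, and with the length offset 13. The share of all genes that kept both calls is not given here, so these counts are not read as particular to the members. The length offset also added opposite calls. With it 28 of the 45 were called in opposite directions, beside 27.6% of all genes. Of the 28, 22 were lower in lung and higher in spleen and 6 the reverse. DESeq2 called 14 of the 45 in opposite directions, beside 14.9% of all genes. An assumed BCV of 0.1 left 6, beside 11.5% of all genes, and one of 0.2 left 0, beside 1.98%.

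The difference between the KO effects, lung minus spleen, was tested in the same fit. It passed for 38 of 45 genes, 13 positive and 25 negative, beside 61.6% of all genes (32.5% positive, 29% negative). Of these, 17 had a size of 0.5 or more on the log2 scale, beside 47.7% of all genes. With the length offset, 7 were positive and 28 negative, where 43.0% of all genes called were positive, from 52.9%.

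**Figure D2:**
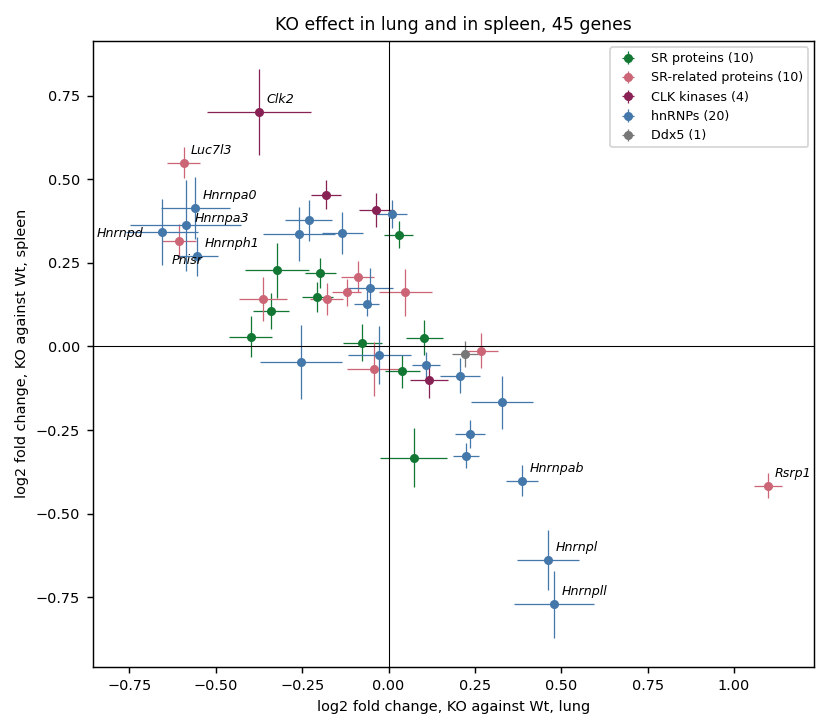
Log2 fold change of KO against Wt in lung (horizontal axis) and in spleen (vertical axis) for the 45 genes tested, coloured by role, with bars of one standard error. Of the 45 genes, 15 passed the test as lower in lung and higher in spleen (upper left) and 6 as higher in lung and lower in spleen (lower right) with TMM scaling. With library totals these counts were 6 and 12, and with the length offset 22 and 6.

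Properties of the libraries moved in the same pattern as these genes. The log2 level of genes of high GC content (over 55%) against low (under 45%), as a smooth trend of each library, was -0.23 and -0.20 in Wt lung, 0.24 and 0.30 in KO lung, 0.24 and 0.14 in Wt spleen, and -0.24 and -0.26 in KO spleen. The transcripts of the 45 genes were of low GC content, with a median of 44.8% against 49.3% over all genes tested. The 45 genes were also long, with a median exon length of 6466 bases against 4009. With the GC offset, 16 of the 21 genes kept both calls. The 20 genes then called in opposite directions, beside 24.6% of all genes, were 11 lower in lung and higher in spleen and 9 the reverse. The 15 genes of the first kind had a median GC of 45.1%, from 39.4 to 55.4, and the 6 of the second kind 48.6%, from 42.2 to 52.1. Immediate early genes summed to 1435 and 1487 CPM in Wt lung, 2556 and 2570 in KO lung, 1148 and 1215 in Wt spleen, and 782 and 793 in KO spleen. Of these genes, the paper counts Junb, Jund and Fos among those that govern activation of NK cells. It proposes that NK cells in KO tissue are more active. Neither cell handling nor activation was tested as a source of these levels. The nuclear RNAs Malat1 and Neat1 summed to 8096 to 9320 CPM in Wt lung, 6923 to 7347 in KO lung, 3363 to 3534 in Wt spleen and 5756 to 6248 in KO spleen. Malat1 made up nearly all of this sum. Neat1 had 82.8 and 86.8 CPM in Wt lung and 53.0 and 59.0 in KO lung. In spleen Neat1 did not rise with Malat1, at 55.2 and 58.0 CPM in Wt and 52.2 and 46.4 in KO. Summed over 8 NK cell genes, the level was 47486 to 48955 CPM in Wt lung, 37392 to 37794 in KO lung, 33532 to 34199 in Wt spleen and 43963 to 46237 in KO spleen. Gzma and Nkg7 made up most of this sum, and Tbx21 and Prf1 of the same list went the other way. Tbx21 had 216 and 221 CPM in Wt lung, 478 and 480.1 in KO lung, 341 and 331 in Wt spleen and 149.8 and 147 in KO spleen. Prf1 had 1463 and 1556 CPM in Wt lung, 2477 and 2554 in KO lung, 1303 and 1320.0 in Wt spleen and 939 and 938 in KO spleen. The part of the immediate early genes, of nuclear RNA and of the NK cell genes in the results was not tested.

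**Figure D3:**
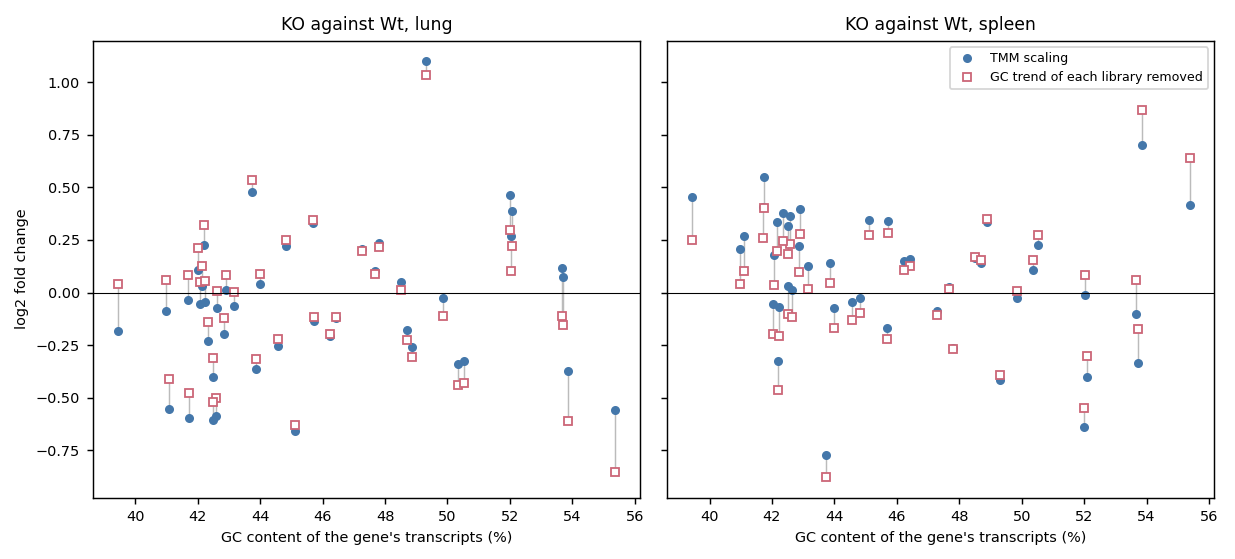
Log2 fold change of KO against Wt (vertical axis) against the GC content of the transcripts in percent (horizontal axis) for the 45 genes, in lung (left) and spleen (right), with TMM scaling (filled circles) and after the trend with GC was taken out of each library (open squares). With the trend removed, the median of the 45 was 0.0020 in lung and 0.06 in spleen, from -0.06 and 0.14 before.

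The SR-related proteins held the largest single change. Rsrp1 (chromosome and span in GRCm38 as for all genes here, 4:134923592-134927671, plus strand) was counted at 347 and 333 CPM in the Wt lung libraries, 726 and 733 in KO lung, 786 and 797 in Wt spleen and 589.6 and 595 in KO spleen. Both Wt lung libraries were far below all others, and no groups overlapped. Its log2 fold change was 1.10 ± 0.04 (SE) in lung (adjusted p = 7.7e-23) and -0.42 ± 0.04 in spleen (adjusted p = 7.2e-12), and the difference between the organs was 1.51 ± 0.06 (adjusted p = 1.8e-23). The difference and the lung effect passed the test under every alternative, from 1.23 to 1.68 and from 0.92 to 1.19. In its transcripts, with a GC content of 49.3%, every stretch of 50 bases was unique among annotated transcripts.

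Luc7l3 (11:94287890-94321988, minus strand), a homologue of a yeast U1 snRNP protein that helps choose 5′ splice sites, moved the other way. It stood at 262 and 262 CPM in Wt lung, 176 and 172 in KO lung, 189 and 187 in Wt spleen and 277 and 275 in KO spleen. The Wt lung and KO spleen groups were thus high and KO lung and Wt spleen low, with no overlap between any groups. Its log2 fold change was -0.59 ± 0.05 in lung (adjusted p = 7.0e-13) and 0.55 ± 0.05 in spleen (adjusted p = 1.3e-12), and the difference of -1.14 ± 0.07 passed under every alternative, from -1.37 to -0.88. Its paralogues Luc7l and Luc7l2 had smaller values. Luc7l stood at 64.2 and 65.3 CPM in Wt lung, 68.8 and 65.3 in KO lung, 54.5 and 58.0 in Wt spleen and 62.4 and 63.7 in KO spleen, and its log2 fold changes were 0.05 in lung (adjusted p = 0.61) and 0.16 in spleen (adjusted p = 0.047), where 15 of 22 alternatives lost the call, among them leaving out any library other than Wt lung replicate 1 (0.13 to 0.22). Luc7l2 had 72.6 and 66.8 CPM in Wt lung, 70.6 and 66.9 in KO lung, 46.5 and 49.0 in Wt spleen and 51.9 and 44.7 in KO spleen, with log2 fold changes of -0.04 (adjusted p = 0.67) and -0.07 (adjusted p = 0.49). For Luc7l2, 18.9% of exon bases overlap a gene on the other strand, and the strand setting of the counting is not stated, so its reads and those of that gene cannot be told apart there.

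Pnisr (4:21847583-21876475, plus strand), a speckle protein that binds pinin, fell in lung and rose in spleen. It was counted at 255 and 257 CPM in Wt lung, 167 and 168 in KO lung, 139 and 142 in Wt spleen and 176 and 175 in KO spleen. The Wt lung libraries stood apart from the other 3 groups. The log2 fold change was -0.61 ± 0.05 in lung (adjusted p = 5.7e-13) and 0.32 ± 0.05 in spleen (adjusted p = 1.6e-06).

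Of the proteins of the speckle scaffold, Son had a small effect of the same order and Srrm2 did not. Son stood at 524 and 525 CPM in Wt lung, 485 and 479 in KO lung, 388 and 367 in Wt spleen and 431 and 415 in KO spleen, with log2 fold changes of -0.12 in lung (adjusted p = 0.011) and 0.16 in spleen (adjusted p = 0.0011). With library totals, and with the length offset, Son did not pass in both organs, nor did it in lung without KO lung replicate 1 (-0.12, adjusted p = 0.052) or 2 (-0.11, adjusted p = 0.093), or in spleen without Wt spleen replicate 2 (0.11, adjusted p = 0.087). Srrm2 stood at 253 and 247 CPM in Wt lung, 295 and 307 in KO lung, 213 and 213 in Wt spleen and 232 and 203 in KO spleen. It rose in lung, with a log2 fold change of 0.27 (adjusted p = 2.6e-05), which was 0.10 and not called with the GC offset (adjusted p = 0.079), and in spleen its libraries overlapped (log2 fold change -0.01, adjusted p = 0.86). The splicing coactivator Srrm1 had 326 and 307 CPM in Wt lung, 292 and 273 in KO lung, 249.5 and 248 in Wt spleen and 285 and 270.4 in KO spleen, with log2 fold changes of -0.18 (adjusted p = 0.0015) and 0.14 (adjusted p = 0.0096), and it lost the opposite order with library totals. Its lung call was lost without Wt lung replicate 1 (-0.14) or KO lung replicate 2 (-0.12), and its spleen call without Wt spleen replicate 2 (0.14). Tra2a and Tra2b, the homologues of fly transformer-2 that promote exon inclusion, each passed in 1 organ. Tra2a fell in lung (log2 fold change -0.36, adjusted p = 3.0e-05), from 124 and 110.4 CPM in Wt to 95.6 and 90.5 in KO, and had 81.7 and 94.1 in Wt spleen and 101 and 98.3 in KO spleen. Tra2b rose in spleen (log2 fold change 0.21, adjusted p = 2.0e-04), from 232 and 227 CPM in Wt to 261 and 265 in KO, and had 257 and 252 in Wt lung and 248 and 233 in KO lung. With the GC offset the spleen value of Tra2b was 0.04 (adjusted p = 0.46), so that the call was lost, and its difference between the organs was 0.018, from -0.30. Over the 10 SR-related proteins, 2 were higher and 5 lower in KO lung, beside 29.2% and 26.4% of all genes. In KO spleen 6 were higher and 1 lower, beside 28.2% and 28.9%. With library totals the counts were 2 and 3 in lung and 3 and 1 in spleen.

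Among the CLK kinases, Clk1, Clk2 and Clk4 rose in KO spleen. Clk1 (1:58410189-58424066, minus strand) stood at 255 and 261 CPM in Wt spleen and 338 and 361 in KO spleen, with no overlap (log2 fold change 0.45 ± 0.04, adjusted p = 5.7e-11). Clk4 (11:51261730-51281766, plus strand) had 149.6 and 149 CPM in Wt spleen and 203 and 196 in KO spleen (log2 fold change 0.41 ± 0.05, adjusted p = 1.1e-08). Clk2 (3:89164795-89176921, plus strand), the lowest of the 4 per length, had 12.7 and 12.0 CPM in Wt spleen and 18.3 and 20.2 in KO spleen (log2 fold change 0.70 ± 0.13, adjusted p = 1.7e-05). These 3 rises also passed with library totals and with the GC and length offsets. In lung, Clk1 and Clk2 were called lower with TMM and Clk4 was not called. Clk1 had 359 and 363 CPM in Wt and 323 and 314 in KO, a log2 fold change of -0.18 ± 0.04 (adjusted p = 7.3e-04), but its transcripts had the lowest GC content of the 45 genes, 39.4%, and with the GC offset the value was 0.043 (adjusted p = 0.41 by the same test). It was also not called with library totals (-0.09, adjusted p = 0.094). Clk2 had 17.8 and 15.0 CPM in Wt lung and 13.1 and 12.9 in KO lung, a log2 fold change of -0.37 ± 0.15 (adjusted p = 0.034), a call that 8 of 22 alternatives lost, among them leaving out Wt lung replicate 1 (-0.22) or KO lung replicate 1 or 2 (-0.37 and -0.36). Clk4 had 200.2 and 207 CPM in Wt lung and 202 and 195 in KO lung, overlapping libraries with a log2 fold change of -0.04 (adjusted p = 0.57).

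Clk3 (9:57750624-57765860, minus strand) passed the test in neither organ, whereas with library totals it was higher in KO lung and lower in KO spleen. It had 157 and 175 CPM in Wt lung, 178 and 178 in KO lung, 158 and 156 in Wt spleen and 142 and 147 in KO spleen, with log2 fold changes of 0.12 (adjusted p = 0.07) and -0.10 (adjusted p = 0.11). The difference of its effects was 0.22 ± 0.08 (adjusted p = 0.014) and turned to -0.17 with the GC offset. Without Wt lung replicate 1 it was 0.10 (adjusted p = 0.34). Exons of Edc3 on the other strand overlap 15.2% of its exon bases. The difference between the organs was -1.07 ± 0.20 for Clk2 (adjusted p = 1.5e-05), -0.64 ± 0.06 for Clk1 (adjusted p = 3.9e-11) and -0.44 ± 0.07 for Clk4 (adjusted p = 1.4e-06). Summed over the 4 kinases, the level was 734 and 761 CPM in Wt lung, 716 and 699 in KO lung, 575 and 577 in Wt spleen, and 702 and 724 in KO spleen. The Wt spleen libraries were the lowest.

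The SR proteins are the substrates of these kinases. In KO lung, 0 of 10 tested were higher and 5 lower by edgeR's test, beside 29.2% and 26.4% of all genes. In KO spleen 4 were higher and 1 lower, beside 28.2% and 28.9%. The count of SR proteins higher in KO lung was also 0 at an unadjusted p under 0.05 and with DESeq2. With library totals, 3 were higher and 5 lower in lung, and 2 higher and 2 lower in spleen, and with the GC offset 1 was higher and 5 lower in lung. The 5 lower in lung were Srsf2, Srsf5, Srsf9, Srsf10 and Srsf11. Srsf10, which represses splicing when dephosphorylated, had 176 and 181 CPM in Wt lung, 139 and 132 in KO lung, 125 and 135 in Wt spleen and 116 and 139 in KO spleen. Its lung log2 fold change was -0.40 (adjusted p = 1.3e-06), and its spleen libraries overlapped. Srsf2 had 334 and 303 CPM in Wt lung, 259 and 249.7 in KO lung, 207 and 206 in Wt spleen and 201 and 230.3 in KO spleen, and fell by 0.34 in lung (adjusted p = 8.9e-07). Exons of Mettl23 and Mfsd11 on the other strand overlap 25.3% of its exon bases. Srsf7, the most abundant SR protein, rose in spleen from 377 and 379 CPM to 459 and 487 (log2 fold change 0.33 ± 0.04, adjusted p = 1.1e-08), and its lung libraries overlapped at 457 and 443 in Wt and 467 and 454 in KO. Srsf4 was the 1 SR protein lower in KO spleen, at 40.5 and 42.8 CPM in Wt and 35.6 and 32.9 in KO (log2 fold change -0.33, adjusted p = 0.0014), and with the GC offset it was -0.17 and not called (adjusted p = 0.086), while Srsf1 then was (-0.17, adjusted p = 0.0023). For Srsf4, 43.0% of exon bases overlap Gm12992 on the other strand. With TMM scaling, Srsf1, Srsf3 and Srsf6 passed in neither organ, with log2 fold changes between -0.08 and 0.10. Srsf1, Srsf2, Srsf3, Srsf4, Srsf5, Srsf6, Srsf9, Srsf10 and Srsf11 and Hnrnpab, Hnrnpm, Hnrnpu and Hnrnph1 lie outside the naming rule and were chosen after their values were seen.

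The hnRNPs split into genes of either direction. In KO lung, 8 of 20 were higher and 6 lower, beside 29.2% and 26.4% of all genes. In KO spleen 10 were higher and 5 lower, beside 28.2% and 28.9%. With library totals these counts were 9 and 4 in lung and 7 and 8 in spleen, and with the GC offset 8 and 5 in lung and 6 and 7 in spleen. Of the 10 genes that kept opposite calls under every scaling and offset, 7 were hnRNPs.

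Hnrnpl and Hnrnpll, the pair known for CD45 splicing, both rose in lung and fell in spleen. Hnrnpl (7:28808541-28822266, plus strand) had 39.5 and 46.4 CPM in Wt lung, 58.7 and 57.0 in KO lung, 41.7 and 44.8 in Wt spleen and 30.0 and 27.7 in KO spleen. The Wt groups of both organs overlapped, and the KO groups lay above and below them. Its log2 fold change was 0.46 ± 0.09 in lung (adjusted p = 4.5e-05) and -0.64 ± 0.09 in spleen (adjusted p = 1.6e-07). Hnrnpll (17:80029487-80062334, minus strand) had 28.6 and 22.3 CPM in Wt lung, 36.4 and 37.1 in KO lung, 45.7 and 37.6 in Wt spleen and 22.9 and 23.8 in KO spleen. Here KO spleen fell to the level of Wt lung. Its log2 fold change was 0.48 ± 0.12 in lung (adjusted p = 6.1e-04) and -0.77 ± 0.10 in spleen (adjusted p = 3.6e-08). The differences between the organs were 1.10 ± 0.13 and 1.25 ± 0.15, and that of Hnrnpll passed under every alternative, from 1.14 to 1.48.

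Hnrnpab, Hnrnpm and Hnrnpu had the same order at higher levels. Hnrnpab, a binder of AU-rich RNA, had 246 and 234 CPM in Wt lung, 311 and 318 in KO lung, 279 and 277 in Wt spleen and 217 and 208 in KO spleen, with log2 fold changes of 0.39 and -0.40 (adjusted p = 7.1e-09 and 2.0e-09). Exons of Phykpl on the other strand overlap 29.1% of its exon bases. Hnrnpu, a nuclear scaffold protein, had 675 and 673 CPM in Wt lung, 796 and 780.0 in KO lung, 748 and 769 in Wt spleen and 612 and 602 in KO spleen, with log2 fold changes of 0.22 and -0.33. For Hnrnpm they were 0.23 and -0.26. In none of these did the KO and Wt libraries of an organ overlap.

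Hnrnpd, Hnrnpa0 and Hnrnph1 took the opposite course. Hnrnpd (5:99955935-99978938, minus strand), also known as AUF1, a factor of AU-rich mRNA decay, had 41.2 and 45.9 CPM in Wt lung, 28.2 and 26.4 in KO lung, 23.0 and 26.6 in Wt spleen and 32.6 and 32.1 in KO spleen. The Wt lung libraries were the highest, and KO and Wt did not overlap in either organ. Its log2 fold change was -0.66 ± 0.10 in lung (adjusted p = 1.8e-06), and 0.34 ± 0.10 in spleen (adjusted p = 0.0035). The spleen call was lost with DESeq2 (0.37, adjusted p = 0.079) and without KO spleen replicate 2 (0.36, adjusted p = 0.09). Hnrnpa0 (13:58125879-58128556, minus strand), a relative of Hnrnpa1 that binds AU-rich RNA, had 46.2 and 43.5 CPM in Wt lung, 30.5 and 30.9 in KO lung, 28.2 and 28.7 in Wt spleen and 43.1 and 37.1 in KO spleen, with log2 fold changes of -0.56 ± 0.10 (adjusted p = 1.1e-05) and 0.41 ± 0.09 (adjusted p = 2.7e-04). Its GC content, 55.4%, was the highest of the 45. Hnrnph1, which binds runs of G, had 169 and 157 CPM in Wt lung, 114 and 109.8 in KO lung, 95.2 and 102 in Wt spleen and 120.5 and 120.1 in KO spleen. It fell by 0.55 in lung (adjusted p = 5.1e-10) and rose by 0.27 in spleen (adjusted p = 1.7e-04), though not with the GC offset in spleen.

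Hnrnpa3 had 15.0 and 18.1 CPM in Wt lung, 11.1 and 10.5 in KO lung, 11.5 and 12.4 in Wt spleen and 15.0 and 15.6 in KO spleen, with log2 fold changes of -0.59 ± 0.16 (adjusted p = 0.0021) and 0.36 ± 0.14 (adjusted p = 0.023). The spleen call was lost in 9 of 22 alternatives, among them leaving out Wt spleen replicate 1 or 2 (0.32 and 0.43) or KO spleen replicate 2 (0.31), and only 73.1% of its 50-base stretches are unique among annotated transcripts, so its counts are uncertain. The same limit touches Hnrnpf, at 56.8%, Hnrnpa1, at 71.8%, Hnrnph2, at 84.1%, Hnrnpk, at 85.5%, and Ddx5, at 86.6%. Hnrnpul2, a relative of Hnrnpu, had 36.4 and 32.9 CPM in Wt lung, 29.3 and 29.5 in KO lung, 39.0 and 42.9 in Wt spleen and 54.2 and 52.1 in KO spleen. Its rise in spleen was 0.34 (adjusted p = 5.1e-04), and its lung effect, -0.26 (adjusted p = 0.035), was lost in 8 of 22 alternatives, among them leaving out Wt lung replicate 1 (-0.17) or KO lung replicate 1 or 2 (-0.24 and -0.27). Hnrnpdl, a relative of Hnrnpd, had 133 and 129 CPM in Wt lung, 125 and 116 in KO lung, 71.4 and 75.5 in Wt spleen and 94.0 and 93.6 in KO spleen, and rose in spleen by 0.34 (adjusted p = 2.3e-05). Hnrnpk, the most abundant hnRNP, had 1387 and 1392 CPM in Wt lung, 1357 and 1305 in KO lung, 1318 and 1363 in Wt spleen and 1419.7 and 1503 in KO spleen, a log2 fold change of -0.06 in lung (adjusted p = 0.15) and 0.13 in spleen (adjusted p = 0.003). Its spleen call was lost in 6 of 22 alternatives, with 0.015 under the GC offset (adjusted p = 0.73), 0.06 with library totals (adjusted p = 0.19) and 0.08 without KO spleen replicate 2 (adjusted p = 0.17). The other 8 hnRNPs had log2 fold changes between -0.25 and 0.33 in lung and between -0.17 and 0.40 in spleen. Ddx5 rose in lung, from 921 and 947 CPM in Wt to 1103 and 1073 in KO (log2 fold change 0.22 ± 0.04, adjusted p = 6.5e-06), a call lost with the length offset, and had 759 and 816 in Wt spleen and 764 and 785 in KO spleen.

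Lung and spleen were then compared within each genotype, contrasts that share their libraries with those above. In Wt, most of the genes were higher in lung: 38 of 45 passed, 30 higher and 8 lower in lung, beside 57% of all genes (27.7% higher, 29.3% lower). Of these, 9 had a size of 0.5 or more, beside 33.3% of all genes. With library totals, with which the median of all genes is -0.12 in place of -0.0094, 20 were higher and 10 lower. Both lung libraries lay above both spleen libraries for 31 genes and below them for 8, beside 36.8% and 38.8% of all genes. All 10 SR-related proteins passed, 9 of them higher in lung, as did 8 of 10 SR proteins, all higher, and 3 of 4 CLK kinases, all higher. With library totals, 7 SR-related proteins, 5 SR proteins and 3 CLK kinases were higher. The hnRNPs were divided, 9 higher and 7 lower, and 4 and 9 with library totals. The largest differences, lung against spleen on the log2 scale, were -1.22 ± 0.04 for Rsrp1, 0.86 ± 0.05 for Pnisr, 0.83 ± 0.07 for Hnrnpdl and 0.75 ± 0.11 for Hnrnpd (adjusted p = 5.4e-25, 4.8e-17, 1.8e-13 and 1.5e-07 by edgeR's test). Luc7l2, which the genotype left without a call, was higher in lung in both genotypes, by 0.55 in Wt and 0.58 in KO (adjusted p = 6.0e-07 and 2.0e-08).

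In KO, the directions were more even with TMM scaling. With the length offset, 9 of the 45 genes were higher and 23 lower in lung, where 40.6% of all genes called were higher, from 51.7%. With TMM scaling, 32 passed, 19 higher and 13 lower in lung, beside 65.6% of all genes (33.9% higher, 31.7% lower). Without KO spleen replicate 2, the deepest library, the median log2 fold change of the 45 genes was 0.11, from 0.035. Over all genes it was then 0.030, from 0.017. The lung libraries lay above the spleen libraries for 22 genes and below for 16, beside 40.6% and 38.8% of all genes. Of the SR proteins 4 were higher and 1 lower, of the SR-related proteins 4 and 2, of the CLK kinases 1 and 2, and of the hnRNPs 9 and 8. With the length offset the counts were 0 and 5, 3 and 5, 0 and 3, and 5 and 10. The largest differences were 1.04 ± 0.09 for Hnrnpl (adjusted p = 2.3e-13), -0.83 ± 0.09 for Hnrnpul2 (adjusted p = 1.4e-10), -0.66 ± 0.05 for Luc7l3 (adjusted p = 2.8e-15) and 0.64 ± 0.10 for Hnrnpll (adjusted p = 1.3e-06). Rsrp1, which had the lowest Wt value, was higher in lung in KO, by 0.30 ± 0.04 (adjusted p = 8.4e-09).

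**Figure D4:**
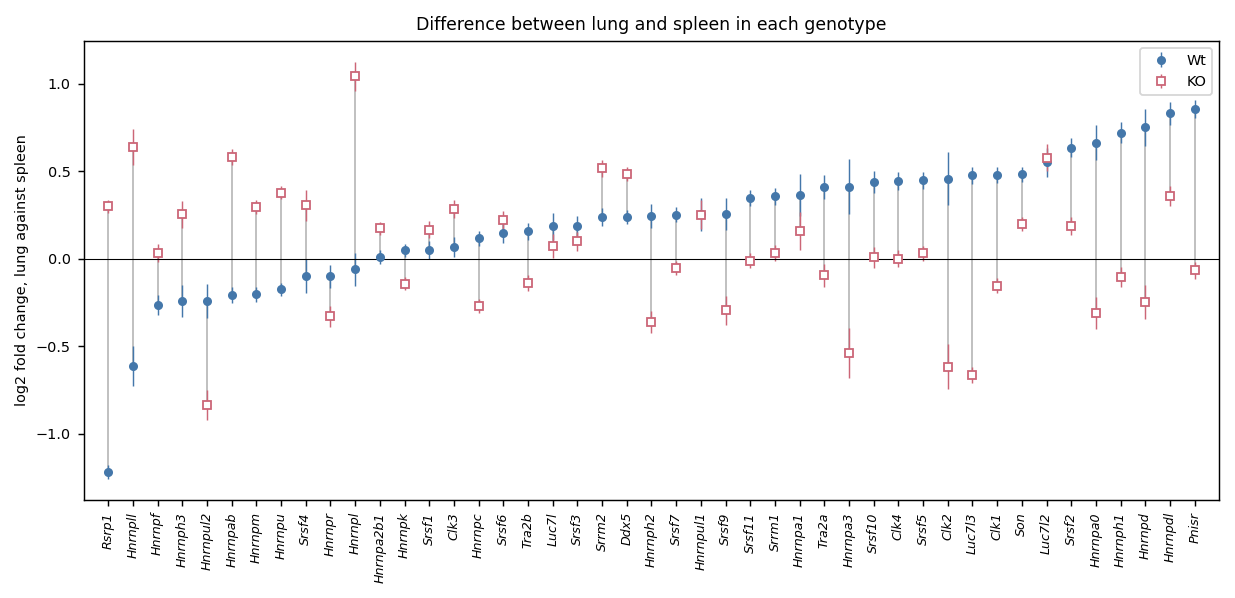
Log2 fold change of lung against spleen (vertical axis) in Wt (filled circles) and KO (open squares) for the 45 genes tested, ordered by the Wt value, with bars of one standard error and a line joining the genotypes of a gene. With TMM scaling, 30 genes passed as higher and 8 as lower in lung in Wt, and 19 and 13 in KO. With library totals 20 were higher and 10 lower in Wt, against 20 and 11 in KO, and with the length offset 31 and 7 in Wt, against 9 and 23 in KO.

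Splicing genes outside these families were counted by lists in the same fit. Values of single genes from the lists are given with TMM scaling only, without the GC or length offset. The counts of every list are read beside the shares of all genes. These were 29.2% higher and 26.4% lower in KO lung, and 28.2% higher and 28.9% lower in KO spleen. The medians given for the snRNP proteins are read beside 0.02 in lung and 0 in spleen over all genes. Of 25 core proteins of the snRNPs, 4 were higher and 9 lower in KO lung and 14 higher and 4 lower in KO spleen, with median log2 fold changes of -0.12 and 0.21. With library totals the counts were 5 and 7 in lung and 13 and 4 in spleen. Snrnp27 had log2 fold changes of -0.51 in lung and 0.43 in spleen, and Snrnp25 of -0.63 and 0.24, all called. Snrpa, a U1 protein, had log2 fold changes of 0.59 in lung and -0.30 in spleen. Snrnp200, the helicase that unwinds U4 from U6, had 0.24 and -0.73, and these were called as well.

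Of 21 proteins of the U2 snRNP and the tri-snRNP, 8 were higher and 8 lower in KO lung, and 7 higher and 10 lower in KO spleen. U2af2, which binds the polypyrimidine tract, had log2 fold changes of 1.17 in lung and -0.52 in spleen, and Sf3a2 of 0.97 and -1.07. Sf3b6, which lies at the branch site, had -0.42 in lung and 0.60 in spleen, and all of these were called. Of 8 other SR protein kinases, phosphatase partners and importers, 2 were higher and 5 lower in lung, and 5 higher and 1 lower in spleen. The SR protein kinase Srpk2 had log2 fold changes of -0.52 in lung and 0.38 in spleen, and Tnpo3, the importer of SR proteins, of 0.48 and -0.32, all called.

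Of 36 other RNA-binding regulators, 7 were higher and 14 lower in lung (19.4% and 38.9%). In spleen 11 were higher and 12 lower (30.6% and 33.3%), near the shares of all genes. With library totals these counts were 10 and 10, and 8 and 15. Tia1 had log2 fold changes of -0.88 in lung and 0.20 in spleen, and Qk of -0.77 and 0.25. Ewsr1 had 0.28 in lung and -0.70 in spleen, and Khdrbs1, also known as Sam68, 0.49 and -0.32. All of these were called. Ptbp1 had -0.73 in spleen, which was called, and -0.11 in lung, which was not. Of 10 factors of nonsense-mediated decay, which removes the unproductive forms of many SR protein transcripts, 2 were higher and 4 lower in lung and 3 higher and 4 lower in spleen. With library totals 4 were higher and 3 lower in lung. Upf3b had log2 fold changes of -1.11 in lung and 0.60 in spleen, and Upf2 of -0.68 and 0.35. Smg8 and Smg9, which form a complex with the kinase Smg1, had 0.53 and 0.68 in lung and -0.98 and -0.74 in spleen, and all of these were called by edgeR's test. Group means were 9.66 to 24.6 CPM for Smg8 and 7.07 to 17.7 for Smg9. The lists were also counted for lung against spleen in Wt, beside 27.7% higher and 29.3% lower of all genes. Of the 36 other regulators 23 were higher and 4 lower, of the 10 decay factors 6 and 1. Of the 8 kinases, partners and importers 5 were higher and 1 lower, of the 25 snRNP core proteins 9 and 3, and of the 21 U2 and tri-snRNP proteins 8 and 8.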

How the data were processed

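The authors aligned single-end 50-base reads to the mm10 mouse genome and deposited raw counts of reads per gene for each of the 8 libraries. The tools named in the submitters' processing notes are HISAT2 2.1.0 and HTSeq 0.11.1, and the strand setting of the counting is not given in the sources used here. Reads assigned to no gene, 52.7% to 55.0% of uniquely aligned reads, were left out. Here the deposited counts were fitted with edgeR 4.0.16 in R 4.3.3: genes kept by filterByExpr, TMM scaling, 1 mean per group over all 8 libraries, quasi-likelihood tests of 5 contrasts, and Benjamini-Hochberg adjustment over all 12595 genes tested at 0.05. CPM are counts scaled to a common library size. Exon length, GC content and overlaps came from GENCODE M21 (GRCm38), and promoter windows from RefSeq. The script was tested on simulated data.

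The members, the pathway lists and the named genes were chosen with earlier results of these data known. Named were the 6 members with the largest called change in either KO contrast and in the difference between them, the 4 largest in each organ contrast, the CLK and Luc7l genes, the 8 genes listed one by one, members called in no contrast, and the highest and lowest member of each role. Alternatives fixed at the outset were DESeq2 1.42.0, a likelihood ratio test, other scalings and filters, a replicate block, GC and length offsets (splines of 5 degrees of freedom), an assumed BCV, leaving out each library, and fitting 4 libraries alone. The counts of opposite calls, the counts per role and the summed levels under these settings were added after seeing the data. With 2 libraries a group, an exact permutation test of a single value cannot go below p = 0.333, so none was run.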

Additional observations from a re-analysis of the deposited data

Results flagged for a closer look

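For 21 of the 45 genes tested, the KO effect passed edgeR's test in lung and in spleen with opposite signs. The difference between the organs passed for them as well. Where both effects are called with opposite signs in the same fit, that difference is all but bound to pass, so it is no further support. The largest differences, lung minus spleen on the log2 scale, were those of Rsrp1 (1.51), Hnrnpll (1.25), Luc7l3 (-1.14), Hnrnpl (1.10) and Clk2 (-1.07). Under every other scaling and offset, 10 of the 21 kept both calls, a count for which no share of all genes is given. Beside the 21 stand 27% of all genes with opposite calls and the GC trends of the libraries, which had the same sign in Wt lung and KO spleen and the opposite sign in KO lung and Wt spleen.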

How the results depend on the processing

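Calls were few once the spread was assumed larger than the 2.50% measured between libraries. With an assumed BCV of 0.1 and of 0.2, the genes higher and lower numbered 4 and 7, then 1 and 0, in KO lung, 6 and 4, then 0 and 0, in KO spleen, 6 and 11, then 2 and 1, for the difference between the organs, 15 and 2, then 2 and 1, for lung against spleen in Wt, and 8 and 4, then 1 and 1, for the same in KO, and opposite calls fell to 6 and then 0. Of all genes, 34.9% and then 12.4% were called in KO lung, and 32.6% and 9.08% in KO spleen. The shares were 42.2% and 16% for the difference, 37.1% and 16% for the organs in Wt, and 45.4% and 18.4% in KO. Opposite calls took 11.5% and then 1.98% of all genes. With library totals, KO spleen had 15 higher and 13 lower, so that the share higher among called genes went from 76.7% to 53.6% in spleen, from 37.9% to 57.1% in lung and from 78.9% to 66.7% for the organs in Wt. Over all genes called, it went from 49.3% to 41.2%, from 52.5% to 63.3% and from 48.6% to 36.9%. The summed levels were then 10611, 11583, 10520 and 10324 CPM in Wt lung, KO lung, Wt spleen and KO spleen. With the GC offset, alone or with the replicate block, 11 genes were lower in KO spleen. With the offset alone, 62.1% of the called members were higher, against 52.8% of all genes called. With the length offset, 7 genes were higher in KO lung (21.9% of those called), 7 had a positive difference (20% of those called), and 9 were higher and 23 lower in lung for the organs in KO (28.1% higher, from 59.4%). Over all genes called, these shares were 41.8%, 43.0% and 40.6% with that offset. DESeq2 gave 8 lower for the organs in KO. The GC offset turned Clk1 in lung to 0.043, the difference of Clk3 to -0.17, that of Tra2b to 0.018 and the Wt organ difference of Tra2b to -0.038, and with the block to 0.042, -0.17, 0.019 and -0.048. The length offset turned the difference of Ddx5 to -0.026. The cause of these changes was not tested.

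Each library was left out in turn, and the median log2 fold change of the 45 genes was taken. In KO lung it was -0.10 to -0.04, beside 0.01 to 0.03 over all genes. In KO spleen it was 0.10 to 0.15, beside -0.0087 to 0. For the difference it was -0.30 to -0.22, beside 0.02 to 0.06. For the organs it was 0.23 to 0.26 in Wt, beside -0.0099 to 0.0021, and 0.0093 to 0.11 in KO, beside 0.0033 to 0.03. A group left with 1 library was assumed to vary like the others. Libraries of equal replicate number showed little sign of pairing over 5103 genes. Between lung and spleen, their deviations correlated at 0.0045 in Wt and at -0.0758 in KO. Between Wt and KO they correlated at -0.0139 in lung and at 0.169 in spleen. These values cannot show whether lung and spleen libraries share mice. A fit with the replicate block called 11 higher and 18 lower in KO lung, 23 and 7 in KO spleen, and 22 opposite. Of all genes, it called 55.4% in lung, 57% in spleen and 26.7% opposite. The labels do not state that replicate libraries stem from separate mice, so the p-values may measure technical spread. Srsf12, with 46 reads, was too shallow to test.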
